A study of Homo sapiens with 6 samples.

Results

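This account describes 8 genes that mark prostate lineage, steroid signalling or neuroendocrine character in the human prostate cancer line DU145, which grows without androgen, with and without knockdown of RCC2. The genes were taken by name from the deposited tables: FOXA1, HOXB13, KLK3, TMPRSS2, SLC45A3, PMEPA1, NR3C1 and SYP. All 8 have 1 row each among the 50868 gene rows. RNA was sequenced from 3 libraries of cells given a control siRNA (siCtrl, labelled wild type for RCC2) and from 3 libraries of cells given an siRNA against RCC2 (siRCC2, labelled knockdown). RCC2 is an RCC1 repeat protein of the centromere and of small GTPase signalling, and the series title asks about its part in growth, migration, Hedgehog signalling and stem-like cells. All libraries come from 1 cell line, and nothing in the labels says that they are separate cultures, so p-values measure the spread between these libraries only, which may be technical.

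FOXA1 is a pioneer factor that opens chromatin at the enhancers of luminal prostate genes, and HOXB13 is the homeobox factor that marks prostate identity among male organs. KLK3 (prostate-specific antigen), TMPRSS2 (a membrane serine protease), SLC45A3 (prostein, a transporter-like membrane protein) and PMEPA1 (a membrane adaptor that dampens SMAD signalling) are known as androgen-induced genes of luminal cells. NR3C1 encodes the glucocorticoid receptor, which can bind many of the same DNA elements as the androgen pathway and is known to be expressed in prostate lines that have lost hormone dependence. SYP encodes synaptophysin, a membrane protein of synaptic vesicles used as a neuroendocrine marker.

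Stretches upstream of a RefSeq start site are shown for 4 of these genes because the genes span the whole range of outcomes. KLK3 was nearly undetected, FOXA1 was the most abundant per length, and SLC45A3 and SYP were lower after RCC2 siRNA. Each comes from the 250 bases before the RefSeq start of the transcript, build GRCh38.p14, and is written 5′ to 3′ on the strand of the gene. Bases that lie in a GENCODE exon of the same gene are left out. For FOXA1 and SYP these are the bases nearest the RefSeq start, so their stretches end further upstream. The FOXA1 stretch lies inside the span of the gene in GENCODE. KLK3 lies on the plus strand (chr19:50854665-50854914). The others lie on the minus strand: FOXA1 (chr14:37595349-37595499), SLC45A3 (chr1:205680510-205680759) and SYP (chrX:49200260-49200443). Capitals mark matches, on either strand, to 5 short motifs: AGAACA, the half-site read by the glucocorticoid receptor and its relatives; TGTTTAC, a forkhead site; GGGCGG, the GC box; TATAAA, the TATA box; and TTCAGCACC, part of the element read by the neuronal repressor REST.
KLK3: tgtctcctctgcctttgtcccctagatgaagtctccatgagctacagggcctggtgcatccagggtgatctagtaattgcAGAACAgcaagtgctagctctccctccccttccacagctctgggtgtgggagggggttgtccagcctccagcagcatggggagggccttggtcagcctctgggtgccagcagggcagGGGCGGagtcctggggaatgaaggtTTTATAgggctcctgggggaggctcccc
FOXA1: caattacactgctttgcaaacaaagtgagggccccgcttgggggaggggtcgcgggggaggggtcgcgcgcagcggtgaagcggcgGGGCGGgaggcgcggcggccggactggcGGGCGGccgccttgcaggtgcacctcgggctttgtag
SLC45A3: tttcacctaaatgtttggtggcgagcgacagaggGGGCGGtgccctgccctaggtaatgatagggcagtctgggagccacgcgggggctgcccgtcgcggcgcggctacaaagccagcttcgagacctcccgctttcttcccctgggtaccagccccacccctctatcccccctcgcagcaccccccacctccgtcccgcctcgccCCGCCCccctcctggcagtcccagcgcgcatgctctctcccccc
SYP: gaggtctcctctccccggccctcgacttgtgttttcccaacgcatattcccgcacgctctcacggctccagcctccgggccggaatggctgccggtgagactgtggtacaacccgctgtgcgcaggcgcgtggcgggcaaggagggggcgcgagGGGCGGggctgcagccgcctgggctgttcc

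In the KLK3 window the half-site AGAACA starts 170 bases before the transcript, a GC box 53 bases before it and a TATA match (TTTATA, the other strand) 28 bases before it. That window holds 1 CpG, and 6.06% of the 35116 RefSeq windows of the same length hold fewer. FOXA1 has 2 GC boxes, 164 and 136 bases before the start, and 26 CpGs. SLC45A3 also has 2, at 216 and 44 bases, and 19 CpGs. SYP has 4, at 96, 54, 33 and 11 bases, of which the first is in the part shown, and 31 CpGs, with fewer in 89.1% of windows. TGTTTAC and TTCAGCACC were not found in these 4 windows. Positions and CpGs are those of the full 250 bases. Among all windows 12.4% hold AGAACA, 2.98% TGTTTAC, 42.6% GGGCGG, 10.7% TATAAA and 0.288% TTCAGCACC, and a match describes the sequence and not a bound site. RefSeq windows were found for 6 of the 8 genes; NR3C1 has 7 and PMEPA1 has 4, and none of these is printed.

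Total counts ran from 17377191 to 19895431 per library, so 1 CPM (the usual unit of counts scaled to library size) stands for 16.5 to 20.2 reads. RCC2 itself was at 198, 194 and 191 CPM in the siCtrl libraries, in replicate order, and at 59.2, 57.5 and 54.8 CPM in the siRCC2 libraries; the log2 fold change was -1.76 ± 0.07 (edgeR adjusted p = 2.00e-05). Of 16536 genes with enough counts to test, 41.8% were called at an adjusted p under 0.05: 20.7% higher and 21.1% lower in siRCC2. The siRCC2 libraries differed among themselves more than the siCtrl libraries. On the second principal component, which held 16.4% of the variance, siRCC2 replicates 1 to 3 were at 41.5, -13.3 and -35.2. The siCtrl libraries were at 5.36, 5.43 and -3.78, so siRCC2 replicates 1 and 3 lay on opposite sides of them.

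Of the 8 genes, 5 were tested: FOXA1, SLC45A3, PMEPA1, NR3C1 and SYP. SLC45A3, PMEPA1 and SYP fell, 0 rose, and FOXA1 and NR3C1 did not pass the threshold. The 3 that fell are also the ones whose siCtrl and siRCC2 values do not overlap, a pattern found, in that direction, in 28.5% of all tested genes. HOXB13, KLK3 and TMPRSS2, with no more than 3 counts per library, fell under the filter and have no test. The genes were chosen with results of these data known, so the count of 3 in 5 is not set against the 21.1% as a test. The 3 calls held in each of 14 other settings of the scaling, filter, test or libraries. In bulk RNA, fewer cells that express a gene and less RNA per cell cannot be told apart.

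**Figure D1:**
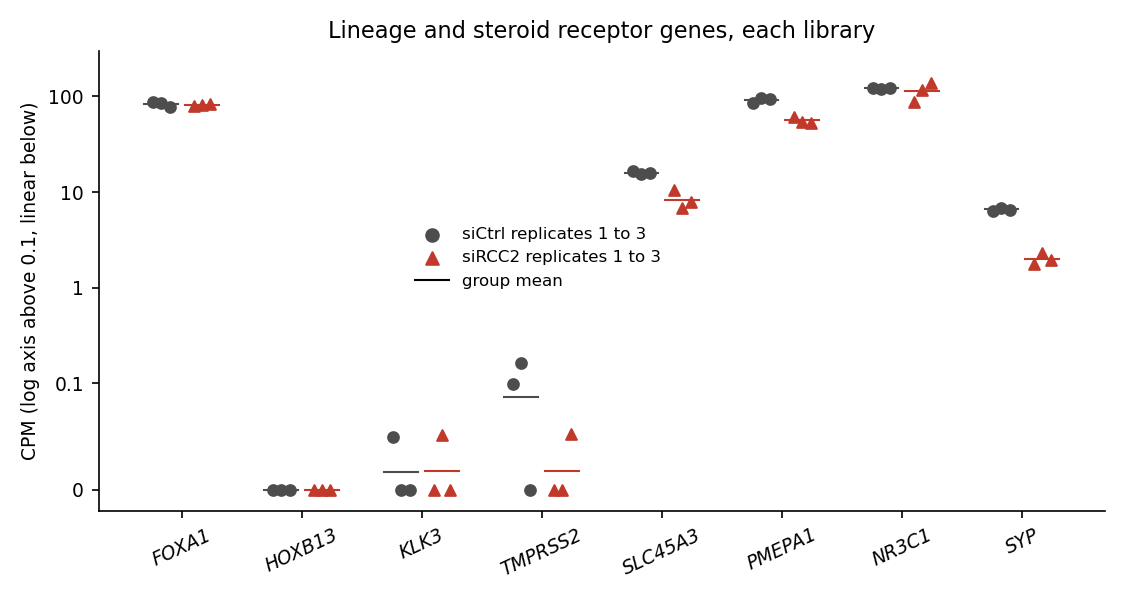
CPM of the 8 genes in each library, on an axis that is logarithmic above 0.1 CPM and linear below, with circles for siCtrl, triangles for siRCC2 and a line at each group mean (n = 3 libraries each). FOXA1 overlaps between groups, SLC45A3, PMEPA1 and SYP do not, NR3C1 is spread in siRCC2, and HOXB13, KLK3 and TMPRSS2 lie at or near 0.

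Per kilobase of exon, FOXA1 stood highest in siCtrl at 21.0 ± 1.34 CPM per kb (SD, n = 3), followed by PMEPA1 at 16.3 ± 1.16, NR3C1 at 13.2 ± 0.24, SLC45A3 at 4.29 ± 0.129 and SYP at 1.26 ± 0.0476 CPM per kb. The ranges of neighbouring genes in this order did not overlap. After RCC2 siRNA the level of FOXA1 was between 19.98 and 20.8 CPM per kb. NR3C1, between 9.45 and 15.0 CPM per kb, and PMEPA1, between 9.38 and 11.0 CPM per kb, could no longer be separated. SLC45A3 and SYP followed at 2.25 ± 0.505 and 0.384 ± 0.0552 CPM per kb.

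FOXA1 (ENSG00000129514, GRCh38 chromosome 14, 37589984 to 37596059, minus strand) was at 88.1, 85.0 and 77.7 CPM across siCtrl replicates 1 to 3, against 79.6, 81.8 and 82.9 CPM across siRCC2 replicates 1 to 3. The siRCC2 values lie inside the siCtrl range. The log2 fold change was -0.04 ± 0.08 (SE; edgeR adjusted p = 0.715), with a 95% interval from -0.21 to 0.14, so changes larger than about 0.862-fold down or 1.10-fold up lie outside it. FOXA1 overlaps TTC6 at its 5′ end, which had 66, 87 and 72 counts in siCtrl and 18, 37 and 43 in siRCC2, few beside the 1316 to 1775 counts of FOXA1. Whether the counting used strand is not given in the sources used here.

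The other factors of prostate lineage, 13 of 17 of them tested, moved in both directions: 4 rose, 4 fell and 5 did not pass, 61.5% called against 41.8% of all genes, with a median log2 fold change of -0.50 against -0.02. SOX9, a factor of the developing prostate, rose from 9.93 ± 1.84 to 28.3 ± 1.64 CPM (log2 fold change 1.51 ± 0.15, edgeR adjusted p = 0.000377). GATA2 (0.57 ± 0.09), a partner of FOXA1 at enhancers, and GRHL1 (0.77 ± 0.22), a grainyhead factor of epithelia, rose as well. ETV5 fell from 112 ± 5.16 to 46.1 ± 3.40 CPM (-1.28 ± 0.08) and ETV4 from 32.6 ± 1.63 to 15.4 ± 1.34 CPM (-1.08 ± 0.10). Both are ETS factors that respond to growth factor signalling. ONECUT2 (-1.57 ± 0.27) and NFIX (-0.72 ± 0.15) fell too. FOXA2, GRHL2, ETV1 and ERG had at most 8 counts in any library.

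HOXB13 (ENSG00000159184, chromosome 17, 48724763 to 48729178, minus strand) had 0 counts in all 6 libraries. Over 113189292 counts this allows a level of up to 0.0265 CPM (3 counts; counting error only; for this gene and KLK3, CPM of summed counts were taken over summed totals without TMM scaling). Other genes of the HOXB cluster were detected. Per kilobase of exon, HOXB9 stood highest among them in siCtrl at 26.3 CPM per kb, with HOXB7 at 14.2, HOXB6 at 9.66 and HOXB5 at 4.78 CPM per kb, and HOXB1 had 0 counts. Of the paralogues of HOXB13, HOXC13 was at 6.30 CPM per kb, HOXA13 at 0.526, and HOXD13 had 0 counts. HOXB9 fell from 67.8 ± 2.33 to 25.4 ± 1.49 CPM (log2 fold change -1.42 ± 0.08, edgeR adjusted p = 6.15e-05), and HOXB6 fell from 25.2 ± 0.712 to 13.8 ± 0.704 CPM (-0.87 ± 0.10). The cofactor gene MEIS3 fell as well (-1.32 ± 0.23). Of 13 tested HOXB, group 13 and MEIS genes, 0 rose and 3 fell. That is 23.1% called against 41.8% of all tested genes, with a median of -0.32 against -0.02.

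KLK3 (ENSG00000142515, chromosome 19, 50854915 to 50860764, plus strand) had 1 count in siCtrl replicate 1, 1 in siRCC2 replicate 2 and 0 in the other 4 libraries. That is 0.0176 CPM in siCtrl (exact Clopper-Pearson 95% interval 0.000446 to 0.0981) and 0.0177 in siRCC2 (0.000449 to 0.0988). Of the 50-base stretches of its longest transcript, 0.415% occur in transcripts of another gene, foremost its neighbour KLK2, which had 0 counts. The kallikrein genes are secreted proteases in 1 cluster on chromosome 19. All 14 other kallikreins stayed below the filter, with at most 12 counts in any library, and their sum ran from 0.808 to 2.18 CPM in siCtrl and from 0.786 to 0.927 CPM in siRCC2.

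TMPRSS2 (ENSG00000184012, chromosome 21, 41464551 to 41531116, minus strand) had 2, 3 and 0 counts across siCtrl replicates 1 to 3, against 0, 0 and 1 across siRCC2 replicates 1 to 3. The ratio of siRCC2 to siCtrl was 0.201, with a counting interval from 0.00426 to 1.80, and no difference could be detected at this depth. Its relatives, the membrane-bound serine proteases, were low too. Of 17 genes of that family and its inhibitors, 6 were tested and 6 had 0 counts everywhere. edgeR called 0 of the 6 tested, with 1 at an unadjusted p under 0.05, and DESeq2 and limma-voom also called 0. In 5 of 14 other settings 1 gene was called lower: upper-quartile scaling, total counts, a filter of at least 1 read, the replicate block, and siCtrl replicate 3 left out. The inhibitor SPINT2 was the most abundant, at 313 ± 14.8 CPM in siCtrl and 317 ± 32.5 in siRCC2 (log2 fold change 0.02 ± 0.09).

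SLC45A3 (ENSG00000158715, chromosome 1, 205657851 to 205680459, minus strand) was at 16.4, 15.5 and 15.7 CPM across siCtrl replicates 1 to 3, against 10.4, 6.75 and 7.86 CPM across siRCC2 replicates 1 to 3. All siRCC2 values lie below all siCtrl values, and siRCC2 replicate 1 is the highest of its group. The log2 fold change was -0.93 ± 0.17 (SE; edgeR adjusted p = 0.00451), a 95% interval from -1.33 to -0.54, and it was -1.13 ± 0.12 without siRCC2 replicate 1 (adjusted p = 0.000615). Of the other SLC45 genes, SLC45A1, a brain-enriched sugar transporter, fell from 12.4 ± 0.857 to 5.08 ± 0.534 CPM (-1.29 ± 0.13, adjusted p = 0.000432). SLC45A4 did not pass (-0.08 ± 0.08), and SLC45A2, the melanocyte member, had at most 7 counts in a library.

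PMEPA1 (ENSG00000124225, chromosome 20, 57648392 to 57711536, minus strand) was at 84.6, 97.3 and 93.0 CPM across siCtrl replicates 1 to 3, against 61.6, 53.8 and 52.7 CPM across siRCC2 replicates 1 to 3. The groups do not overlap. The log2 fold change was -0.71 ± 0.09 (SE; edgeR adjusted p = 0.00122), a 95% interval from -0.93 to -0.49. The long noncoding RNA NKILA overlaps its start and had 18 to 52 counts per library, beside 1005 to 1806 for PMEPA1. PMEPA1 is also a target and brake of TGF-beta signalling and binds ubiquitin ligases of the NEDD4 family. Of 15 tested genes of that circuit, 2 rose, 3 fell and 10 did not pass. That is 33.3% called against 41.8% of all tested genes, with a median of -0.06. Without siRCC2 replicate 1, 4 rose and 2 fell. LTBP2, which binds matrix, rose from 87.5 ± 1.38 to 169 ± 4.70 CPM (0.95 ± 0.06), and SKI, a SMAD corepressor, rose (0.40 ± 0.08). The ligase gene ITCH (-1.15 ± 0.19) and the inhibitory SMAD gene SMAD6 (-0.30 ± 0.08) fell. The number that fell was 1 without siCtrl replicate 1, siCtrl replicate 2 or siRCC2 replicate 2. TGFBI, the most abundant, did not pass (-0.06 ± 0.12).

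The wider set of androgen-regulated genes moved in both directions. Of 24 listed, 19 were tested, of which 5 rose, 3 fell and 11 did not pass, 42.1% called against 41.8% of all genes, with a median of 0.10. NNMT, a nicotinamide methyltransferase, rose from 205 ± 3.81 to 508 ± 63.2 CPM (1.31 ± 0.10), and MED28, a Mediator subunit, rose from 53.8 ± 2.21 to 92.9 ± 1.62 CPM (0.79 ± 0.07). The prostaglandin receptor gene PTGER4 (0.75 ± 0.15) and HERC3 (0.53 ± 0.15) rose as well. The transporter gene ABCC4 (-0.43 ± 0.08), MPHOSPH9 (-1.13 ± 0.25) and TSC22D3 (-0.80 ± 0.25) fell. KLK2 and ADAM7 had 0 counts.

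Luminal and basal markers were called at shares near the 41.8% of all tested genes. Among 9 tested luminal and secretory markers 4 rose and 0 fell, and 5 did not pass (44.4% called, median 0.02); without siCtrl replicate 1, 1 fell. The luminal keratin gene KRT8 rose from 462 ± 4.12 to 729 ± 41.4 CPM (0.66 ± 0.06) and KRT18 from 318 ± 7.46 to 452 ± 40.7 CPM (0.51 ± 0.08). RDH11, a retinol dehydrogenase, rose too (0.49 ± 0.07). Of 6 tested basal markers 0 rose and 3 fell (50% called, median -0.14): KRT15 from 6.83 ± 0.796 to 2.39 ± 0.143 CPM (-1.52 ± 0.16), the neurotrophin receptor gene NGFR (-1.98 ± 0.43) and LAMB3, a laminin chain (-0.26 ± 0.08), whose call was lost in 8 of 14 other settings. NGFR rested on few counts: 63, 46 and 57 across siCtrl replicates 1 to 3, against 5, 25 and 10 across siRCC2 replicates 1 to 3. A difference between the luminal and basal lists was not tested. The basal markers KRT5, KRT14 and KRT6A had at most 9 counts in a library and TP63 had 0, and of the secretory markers FOLH1 and KLK2 had 0 counts and ACP3, MSMB and KLK4 at most 9. Against the label of a prostate cancer cell, the keratins KRT8 and KRT18 and the basal marker LAMB3 were abundant. The secretory products KLK2, KLK3, ACP3 and MSMB were at or near 0.

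NR3C1 (ENSG00000113580, chromosome 5, 143277931 to 143435512, minus strand) was at 122, 119 and 122 CPM across siCtrl replicates 1 to 3, against 86.6, 118 and 138 CPM across siRCC2 replicates 1 to 3. The siCtrl values are tight, with a coefficient of variation of 1.82%, and the siRCC2 values, at 22.6%, extend on both sides of them. The log2 fold change was -0.09 ± 0.16 (SE; edgeR adjusted p = 0.692), a 95% interval from -0.45 to 0.28. It was 0.06 ± 0.08 (adjusted p = 0.536) without siRCC2 replicate 1 and -0.24 ± 0.13 (adjusted p = 0.195) without siRCC2 replicate 3. So NR3C1 gave no call in these settings, and its sign rests on siRCC2 replicate 1.

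In that library NR3C1 lay below the mean of the other siRCC2 libraries on the log2 scale (a difference of -0.56), and 14.6% of tested genes had a lower value. The same difference was 0.51 for SLC45A3, 0.21 for PMEPA1, -0.05 for FOXA1 and -0.26 for SYP. Over all tested genes its median moved with exon length, from 0.11 in the shortest 4114 genes (up to 2533 bases) to -0.16 in the longest 4113 (from 6928 bases), and NR3C1 has 9172 bases of exon. The part of length in the NR3C1 values was not tested.

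**Figure D2:**
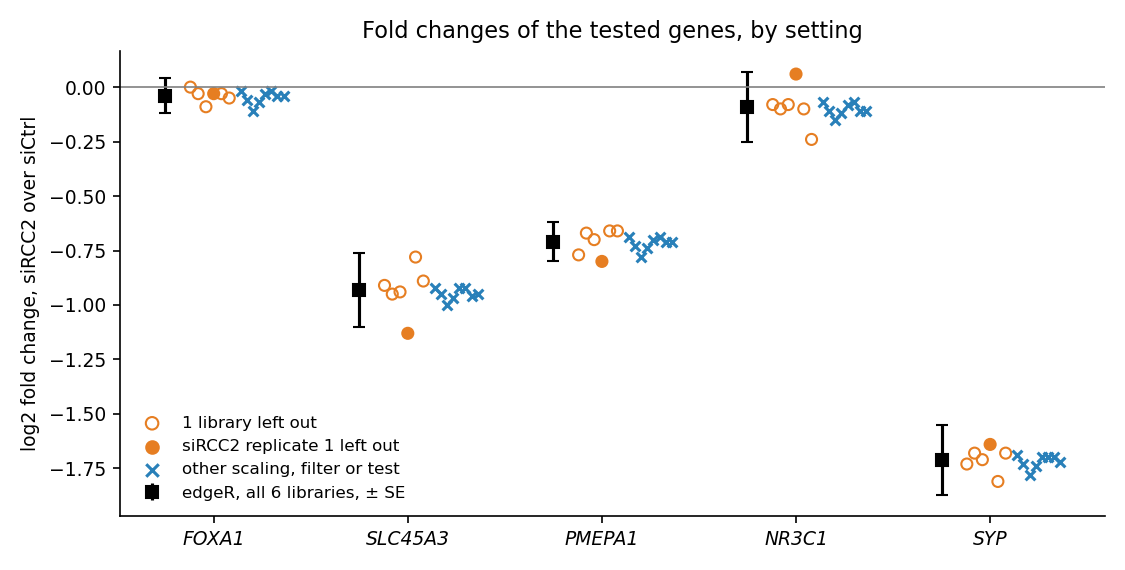
Log2 fold change of siRCC2 over siCtrl for the 5 tested genes: squares give the edgeR value with its SE, orange circles the values with 1 library left out (filled where siRCC2 replicate 1 is left out), and crosses other scalings, filters or tests. SLC45A3, PMEPA1 and SYP stay below 0, FOXA1 stays between -0.11 and 0, and NR3C1 crosses 0 where siRCC2 replicate 1 is left out.

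The listed estrogen, progesterone and mineralocorticoid receptor genes were nearly undetected. ESR1, ESR2, PGR and NR3C2 had no more than 17 counts per library and have no test, nor have ESRRB and ESRRG. The counts of ESR1, the estrogen receptor, were 0, 0 and 4 across siCtrl replicates 1 to 3, against 12, 17 and 9 across siRCC2 replicates 1 to 3. With a filter of at least 1 read, and without siRCC2 replicate 3, 2 genes of this list were called higher, against 1. ESRRA, an orphan relative that controls mitochondrial genes, rose from 32.6 ± 6.13 to 48.5 ± 2.39 CPM (log2 fold change 0.57 ± 0.14, edgeR adjusted p = 0.0153). That call was lost without siCtrl replicate 1 (adjusted p = 0.0594) and without siCtrl replicate 3 (0.0505).

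Genes known to be induced by glucocorticoids moved in both directions and were called at a share near that of all tested genes. Among 17 there were 2 rises and 6 falls, and 9 did not pass. The share called was 47.1% against 41.8% of all tested genes, with a median of 0.06 against -0.02. Without siRCC2 replicate 1, 4 rose and 6 fell. SGK1, a kinase of salt transport, rose from 11.5 ± 0.699 to 27.2 ± 1.07 CPM (1.24 ± 0.10, edgeR adjusted p = 0.000174), as did CEBPD (1.24 ± 0.17). DUSP1, a phosphatase that switches off MAP kinases, fell from 342 ± 13.1 to 136 ± 2.71 CPM (-1.33 ± 0.06). The clock gene PER1 fell from 21.9 ± 1.68 to 11.5 ± 0.19 CPM (-0.93 ± 0.10), and NFKBIA, the inhibitor of NF-kB, from 135 ± 15.7 to 76.5 ± 3.70 CPM (-0.82 ± 0.10). The classic targets FKBP5 (0.41 ± 0.18) and MT2A (0.06 ± 0.10) did not pass, while TSC22D3 and KLF9 (-1.21 ± 0.20), named after their values were seen, fell. ZBTB16 had 0 counts.

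Most of the called chaperones that fold and hold steroid receptors rose. There were 8 rises, 1 fall and 6 genes that did not pass among 15, 60% called against 41.8% of all tested genes. Their median was 0.41 against -0.02 over all genes, and the counts were 8 and 1 without siRCC2 replicate 1. HSPA8, the constitutive HSP70, rose from 351 ± 14.8 to 879 ± 112 CPM (log2 fold change 1.33 ± 0.10, edgeR adjusted p = 0.000137). Its cochaperone DNAJA1 rose from 71.8 ± 4.11 to 133 ± 4.18 CPM (0.89 ± 0.07) and the HSP70-interacting factor ST13 from 71.8 ± 4.88 to 119 ± 2.19 CPM (0.73 ± 0.08). HSP90AB1, the most abundant, rose from 2161 ± 9.06 to 3019 ± 204 CPM (0.48 ± 0.07). STUB1, a ligase that marks chaperone clients for degradation, fell from 49.5 ± 2.28 to 25.9 ± 2.72 CPM (-0.93 ± 0.10). HSPA8 and the HSP90 genes have processed pseudogenes, with which reads may have been shared in the counting.

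Among 15 coregulators of nuclear receptors there were 3 rises and 4 falls, and 8 did not pass. The share called was 46.7%, near the 41.8% of all tested genes, and the median was -0.08. NCOA4, also the receptor for ferritin turnover, rose from 161 ± 5.19 to 323 ± 3.64 CPM (1.01 ± 0.06), and SMARCA4, the ATPase of a chromatin remodeller, from 38.5 ± 2.65 to 88.2 ± 1.39 CPM (1.20 ± 0.08). KMT2D, the most abundant, had a small rise (0.18 ± 0.06, edgeR adjusted p = 0.0433) that was lost in 12 of 14 other settings. The coactivator gene NCOA1 fell from 42.6 ± 0.593 to 22.6 ± 2.73 CPM (-0.91 ± 0.11). NCOR1 (-0.48 ± 0.15) and MED1 (-0.29 ± 0.10) fell as well. The number that fell was between 1 and 2 without any 1 of the siCtrl libraries or without siRCC2 replicate 2.

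Steroid-converting enzymes had 4 rises, 3 falls and 3 that did not pass among 10 tested. The share called was 70% against 41.8% of all tested genes, and the median was 0.27. AKR1C3, which makes testosterone from its precursor, rose from 31.2 ± 0.20 to 112 ± 16.9 CPM (1.84 ± 0.12, edgeR adjusted p = 8.00e-05), but its close paralogues and a second gene model of the same name make its counts uncertain. The steroid sulfatase gene STS rose from 5.98 ± 0.352 to 10.7 ± 1.29 CPM (0.84 ± 0.14), and HSD17B10 (0.38 ± 0.11) and HSD17B11 (0.34 ± 0.10) rose. H6PD, which supplies the cofactor for cortisol regeneration, fell (-0.79 ± 0.13), and HSD3B7 (-0.37 ± 0.08) and HSD17B4 (-0.33 ± 0.10) fell. HSD11B1, which regenerates cortisol, had at most 1 count, and CYP17A1 at most 2. The number that rose was 2 without any 1 of the siCtrl libraries or without siRCC2 replicate 2, and the number that fell was 1 without siRCC2 replicate 2.

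SYP (ENSG00000102003, chromosome X, 49187804 to 49200259, minus strand) was at 6.35, 6.84 and 6.54 CPM across siCtrl replicates 1 to 3, against 1.75, 2.32 and 1.94 CPM across siRCC2 replicates 1 to 3. Its counts went from 127 or 128 per siCtrl library to 29, 45 and 37. The groups lie far apart relative to their spread. The log2 fold change was -1.71 ± 0.16 (SE; edgeR adjusted p = 0.00031), a 95% interval from -2.08 to -1.33, and 1.80% of all tested genes had a lower value. The antisense gene SYP-AS1, which overlaps the start of SYP, had 0 counts.

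Most neuroendocrine markers were at or near 0, but not all. Of 18 neuroendocrine and neuronal genes, 9 had 0 counts in all libraries, among them CHGB, INSM1 and NEUROD1, and CHGA had at most 6 counts in a library. Of the 4 tested, UCHL1, a deubiquitinase, rose from 1082 ± 54.6 to 1462 ± 163 CPM (0.43 ± 0.09, edgeR adjusted p = 0.00825). ENO2, neuron-specific enolase, was well detected at 66.1 ± 15.0 CPM in siCtrl and 53.3 ± 12.2 CPM in siRCC2, and the Notch ligand gene DLL3 was at 6.51 ± 1.17 and 5.61 ± 1.87 CPM. ENO2 (-0.31 ± 0.22), DLL3 (-0.22 ± 0.26) and REST (-0.15 ± 0.31) did not pass. REST, the repressor of neuronal genes, was at 36.5, 35.3 and 37.9 CPM across siCtrl replicates 1 to 3, against 17.6, 34.2 and 46.7 CPM across siRCC2 replicates 1 to 3. Its siRCC2 values lie on both sides of the siCtrl values, with siRCC2 replicate 1 the lowest.

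Genes of synaptic vesicles changed in both directions. Of 13 tested, 3 rose and 7 fell, 76.9% called against 41.8% of all genes, with a median of -0.75, and the counts were 3 and 7 without siRCC2 replicate 1. The closest relatives of synaptophysin, named after their values were seen, split. SYPL1, the widely expressed paralogue, rose from 73.7 ± 2.06 to 115 ± 5.38 CPM (log2 fold change 0.64 ± 0.07, edgeR adjusted p = 0.000578), and SYPL2, the muscle paralogue, fell from 2.76 ± 0.142 to 1.32 ± 0.294 CPM (-1.06 ± 0.22). The synaptogyrin genes SYNGR2, from 104 ± 5.38 to 154 ± 14.9 CPM (0.57 ± 0.09), and SYNGR1 (0.41 ± 0.11) rose, and SYNGR3, the brain-enriched member, fell (-0.82 ± 0.16). Of the other vesicle genes, SV2A fell from 34.3 ± 0.781 to 20.4 ± 0.94 CPM (-0.75 ± 0.09) and SYT11 from 8.66 ± 0.568 to 3.47 ± 0.569 CPM (-1.32 ± 0.16).

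**Figure D3:**
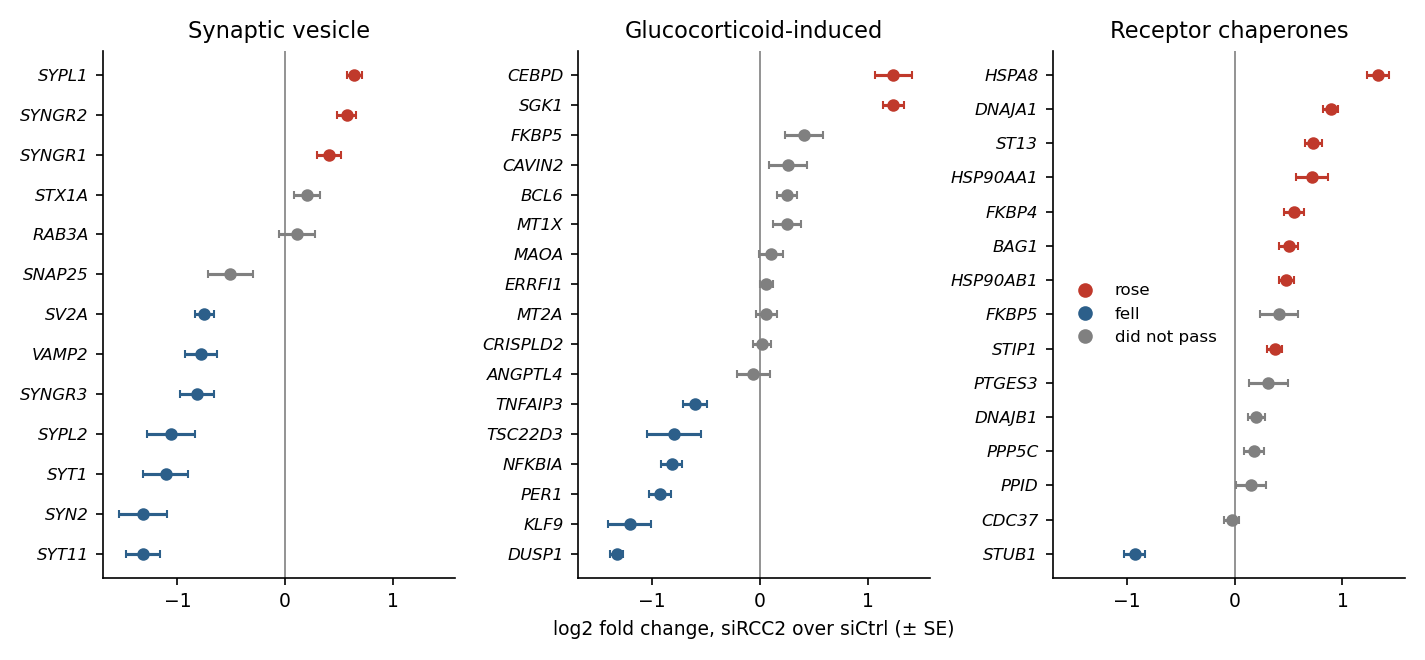
Log2 fold change with its SE for each tested gene of 3 lists, with red for genes that rose, blue for genes that fell and grey for genes that did not pass. Synaptic vesicle genes had 7 falls and 3 rises, glucocorticoid-induced genes 6 falls and 2 rises, and receptor chaperones 8 rises and 1 fall.

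The profiles most like each fallen gene were found by the root mean square difference between log2 CPM values centred on each gene's mean over the 6 libraries. For SLC45A3 these were CNOT6L (0.062), SPSB2 (0.071) and EFEMP2 (0.078). For PMEPA1 they were MUS81 (0.046), CDC45 (0.047) and BUD23 (0.048), and for SYP they were NUAK1 (0.055), NIBAN1 (0.075) and SYNE3 (0.080). These likenesses rest on 6 libraries and mostly on the difference between groups.

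Most markers of other cell types were low. The highest of them were CD68, at 16.3 ± 1.61 CPM in siCtrl and 19.2 ± 3.71 CPM in siRCC2, and COL1A1, at 12.5 ± 1.06 and 9.22 ± 1.40 CPM. Fibroblast and smooth muscle markers summed to between 14.9 and 17.4 CPM in siCtrl and between 9.98 and 13.5 CPM in siRCC2, with LUM at 0 and ACTA2 (-2.26 ± 0.39) and COL1A1 (-0.44 ± 0.15) lower; the second call was lost in 7 of 14 other settings. COL1A2 (0.64 ± 0.22) and PDGFRB (-1.11 ± 0.52) did not pass, although COL1A2 was called higher in 4 of 14 other settings, with adjusted p from 0.0423 to 0.0498 (edgeR or limma-voom). Endothelial markers had at most 13 counts in a library and summed to between 0.943 and 1.46 CPM in siCtrl and between 0.315 and 0.824 CPM in siRCC2. Of the leukocyte markers CD3E had 0 counts and PTPRC 1 in all. The leukocyte markers summed to between 19.6 and 23.1 CPM in siCtrl and between 18.9 and 27.8 CPM in siRCC2. CD79A rose from 0.496 ± 0.129 to 1.28 ± 0.262 CPM (1.35 ± 0.31), a call lost without siCtrl replicate 3 (edgeR adjusted p = 0.0501) and untested with a filter of 1 CPM, while CD68 and CD14 did not pass (0.23 ± 0.16 and -0.46 ± 0.22).

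**Figure D4:**
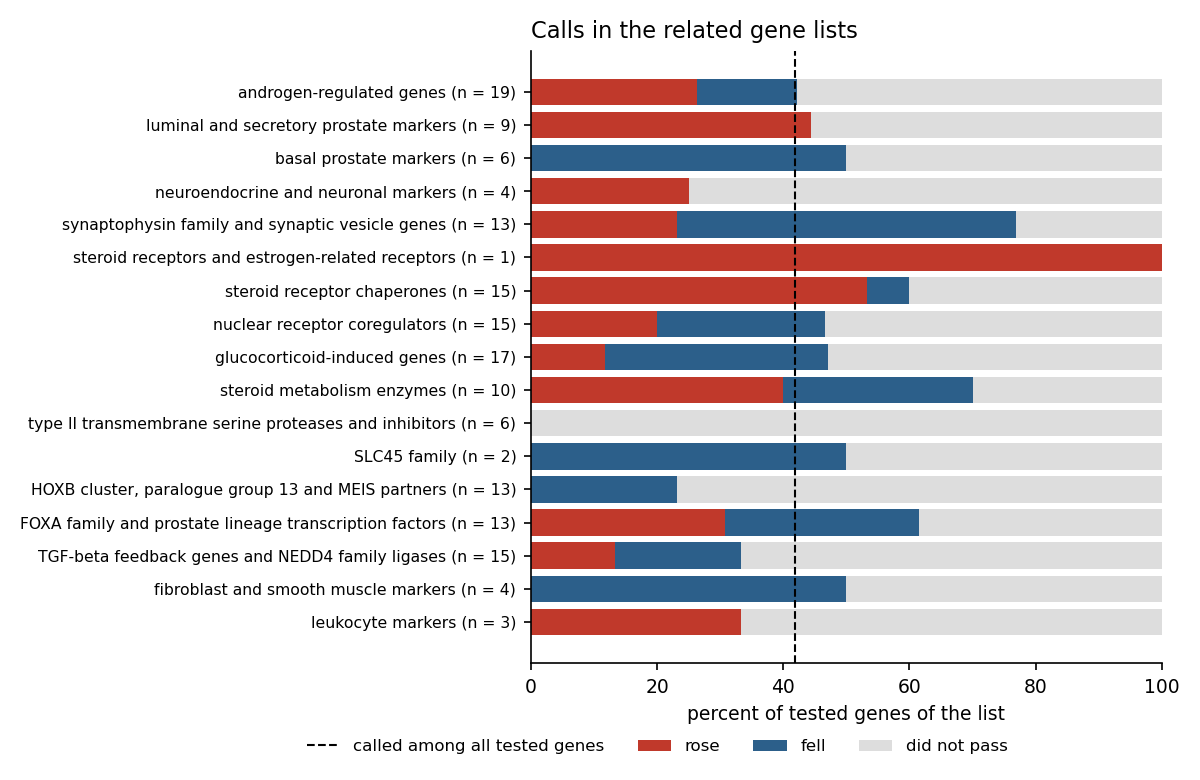
Share of the tested genes of each list that rose (red), fell (blue) or did not pass (grey), in percent, with the number tested beside the name and a dashed line at the 41.8% called among all tested genes. Furthest to the right of the line are steroid receptors (100%, 1 tested), synaptic vesicle genes (76.9%) and steroid enzymes (70%). Furthest to the left are serine proteases and inhibitors (0%, 6 tested), then HOXB, group 13 and MEIS genes (23.1%). The kallikrein and endothelial lists had no tested gene and are not drawn.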

How the data were processed

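RNA from 6 libraries of DU145 cells, 3 siCtrl and 3 siRCC2, was sequenced as total RNA with an MGIEasy kit, per the labels' protocols. The submitters' processing notes name Bowtie2, RSEM, DESeq2 and GRCh38, with no versions. The values used are the whole-number counts per gene that the authors deposited. The assignment of reads shared by several genes, and the use of strand, is not given in the sources here. Lengths and overlaps came from GENCODE 29, which holds 50111 of the 50868 gene identifiers. All 8 genes lie at identical coordinates there.

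Library groups came from the labels. Counts were tested with edgeR 4.0.16 (R 4.3.3): filterByExpr, TMM scaling and glmQLFTest over both groups, with Benjamini-Hochberg adjustment over all 16536 genes that passed the filter and a threshold of 0.05. CPM are counts scaled to the TMM-adjusted library size. Values are means ± SD of 3 libraries, and fold changes carry an SE. Totals per library ran from 17377191 to 19895431 counts. The biological coefficient of variation was 16.6%. Binomial intervals and the floor of 3 counts cover counting error only. The fit was run before use on simulated counts with 200 genes changed and the same spread in both groups. Here 41.8% of tested genes were called and the siRCC2 libraries differed more among themselves, so that run does not vouch for these data. Alternatives used DESeq2 1.42.0, limma 3.58.1 (voom), other scalings and filters, a replicate block and each library left out.

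The 8 genes and the 19 related lists were chosen with earlier results of these data known. Text names the 8 genes, RCC2, all tested genes of a list with at most 4, otherwise the 4 called genes with the smallest p and the most abundant one, and the 3 profiles most like each fallen gene. Likeness used genes of at least 1 CPM. Other genes were named after their values were seen. Some genes of the lists are counted there but not reported here by name.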

Additional observations from a re-analysis of the deposited data

How the results depend on the processing

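SLC45A3, PMEPA1 and SYP fell in all 14 alternatives, with log2 fold changes from -1.13 to -0.78 (highest adjusted p = 0.0211), -0.80 to -0.66 (0.0134) and -1.81 to -1.64 (0.00277), by edgeR, DESeq2 or limma-voom. FOXA1 ranged from -0.11 to 0 and was not called. NR3C1 ranged from -0.24 to 0.06, and its sign turned to 0.06 without siRCC2 replicate 1. The number of all genes changed ran from 5112 to 7565. HOXB13, KLK3 and TMPRSS2 are limited by depth, at 0 to 3 counts in a library. Leaving a library out leaves fewer libraries to test. For the other changes the cause was not tested.

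Among other named genes that did not pass, the sign turned for MT2A (-0.01 with total counts, -0.07 to 0.14 with 1 library left out), REST (-0.49 to 0.13 with 1 library left out), SPINT2 (-0.05 with total counts, -0.01 with a filter of at least 1 read, -0.07 to 0.09 with 1 library left out) and TGFBI (-0.18 to 0.04 with 1 library left out). Of 60 other named genes, 46 kept their call and direction in every alternative. Under limma-voom 5 HOXB, group 13 and MEIS genes fell, against 3. Divided by the longest transcript, in place of all exons, levels in CPM per kb were 29.2 in siCtrl and 28.4 in siRCC2 for FOXA1, 18.9 and 11.6 for PMEPA1, 16.6 and 15.7 for NR3C1, 2.63 and 0.802 for SYP, and 4.75 in siCtrl for SLC45A3.

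With replicate numbers as a block, 6295 genes changed, against 6911, and the same 3 of the 8 genes were called: SYP (-1.72), SLC45A3 (-0.95) and PMEPA1 (-0.71). Deviations of same-numbered libraries correlated at 0.0591, -0.0417 and 0.0987 over genes, and those of different-numbered libraries from -0.119 to 0.0622. The highest value was that of the replicates numbered 3. For siRCC2 replicate 1 the value with siCtrl replicate 2 (0.0622) was near that with siCtrl replicate 1 (0.0591). All values were small, and the numbers were not taken to pair libraries.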
